A study of Mus musculus with 6 samples.

Results

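The mRNAs described here are 42 genes of mitosis, the spindle and the kinetochore, taken by name from a list that sorts them into 8 roles. This list and the other gene lists below were chosen with earlier results of these data known. Their shares beside those of all genes are therefore descriptions and no independent test. All 42 were found among the 22048 genes of the deposited table, each on 1 row, and all 42 passed the filter on low values that kept 13952 genes for testing. They lie on 15 chromosomes and had 142 to 8271 reads per sample. The cells were hypothalamic neural stem/progenitor cells (NSC/NPCs) grown from male C57BL/6 mouse fetuses taken at E14.5. In the high estradiol (HE) group the dams, 8 weeks old, were gavaged with 100 μg/kg/d estradiol valerate from E5.5 to E11.5, and in the control (NC) group they received the solvent, corn oil, over the same days. The labels call the NC cells untreated, although by the protocol the NC dams were gavaged too. Both groups were cultured as first-passage neurospheres with 10 ng/ml EGF and 10 ng/ml bFGF, so all 6 samples are cells held in a medium that promotes division, and each of the 3 HE and 3 NC samples pooled the cells of 2 mice. Which litters the mice came from is not given in the sources used here, so the p-values measure the spread between these 6 samples.

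Mitosis separates the copied chromosomes into 2 daughter cells. Cyclin-dependent kinase 1 and the Aurora and Polo kinases start it, the kinetochore ties each chromosome to spindle microtubules, and the spindle assembly checkpoint holds the cell back until every kinetochore is attached. The anaphase-promoting complex (APC/C) with its activator Cdc20 then releases the chromosomes, and the central spindle directs the cut between the daughter cells. Many of these genes are transcribed mainly in G2 and M phase, under promoters that carry a cell cycle genes homology region (CHR) bound by the DREAM and B-Myb complexes, often with CCAAT boxes bound by NF-Y. In the fetal brain their mRNAs are found in dividing progenitors and are lost from neurons that have left the cell cycle.

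The promoters were read from the RefSeq sequences for GRCm38.p6, 250 bases before to 50 bases after each annotated start, and 35 of the 42 genes had an entry. Kif20a, Spc24, Smc4, Aurkb, Incenp, Cdc25c and Tpx2 had none. The letters searched on both strands were TTTGAA for the CHR element, TTTAAA for its variant, which reads the same on both strands, and CCAAT for the NF-Y box, and matches may share end bases. The 140 bases before the start are shown for 5 genes whose values are given below, in lower case and 5′ to 3′ in the direction of the gene, with every match in capitals (TTCAAA and ATTGG are the same words on the other strand). Cdk1 (chr10:69352913-69353052, minus strand) and Cdc20 (chr4:118437344-118437483, minus strand) have the element beside a pair of boxes, Cdk1 with 2 elements and Cdc20 with 1, Ube2c (chr2:164769789-164769928, plus strand) has it on the opposite strand, Mki67 (chr7:135716380-135716519, minus strand) has it 2 times with no box in these bases, and Mad2l1 (chr6:66535081-66535220, plus strand) is shown as a gene with none of these words.
Cdk1: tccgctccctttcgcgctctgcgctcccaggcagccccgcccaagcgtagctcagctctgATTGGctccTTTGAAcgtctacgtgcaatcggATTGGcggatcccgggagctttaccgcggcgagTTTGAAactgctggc
Cdc20: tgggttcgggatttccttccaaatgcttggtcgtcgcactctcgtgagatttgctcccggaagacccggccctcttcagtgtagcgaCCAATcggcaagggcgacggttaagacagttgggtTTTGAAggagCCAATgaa
Ube2c: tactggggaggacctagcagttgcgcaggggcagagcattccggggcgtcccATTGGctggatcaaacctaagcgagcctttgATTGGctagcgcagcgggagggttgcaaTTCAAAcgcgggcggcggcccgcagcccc
Mki67: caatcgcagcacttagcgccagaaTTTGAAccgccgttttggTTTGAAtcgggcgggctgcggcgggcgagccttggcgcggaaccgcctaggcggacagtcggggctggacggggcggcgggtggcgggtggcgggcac
Mad2l1: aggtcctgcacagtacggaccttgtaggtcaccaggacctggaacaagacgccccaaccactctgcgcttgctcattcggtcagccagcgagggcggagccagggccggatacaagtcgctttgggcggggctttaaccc

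Over the whole window of 300 bases, 26 of the 35 genes (74.3%) held TTTGAA, against 20.2% of the 27025 genes with a RefSeq promoter. CCAAT was also held by 26 (74.3%), against 41.1% of all genes. The variant TTTAAA was in 8 (22.9%), against 14.9%. A CHR of either kind together with CCAAT stood in 24 (68.6%), against 12.2%. Many of the CHR matches lay just after the annotated start, as the plot of element positions shows: with the 250 upstream bases alone, 13 genes (37.1%) held TTTGAA, against 18.3% of all genes, whereas the count for CCAAT stayed at 26, against 37.5%. A match is a description of the letters, and binding was not measured.

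**Figure D1:**
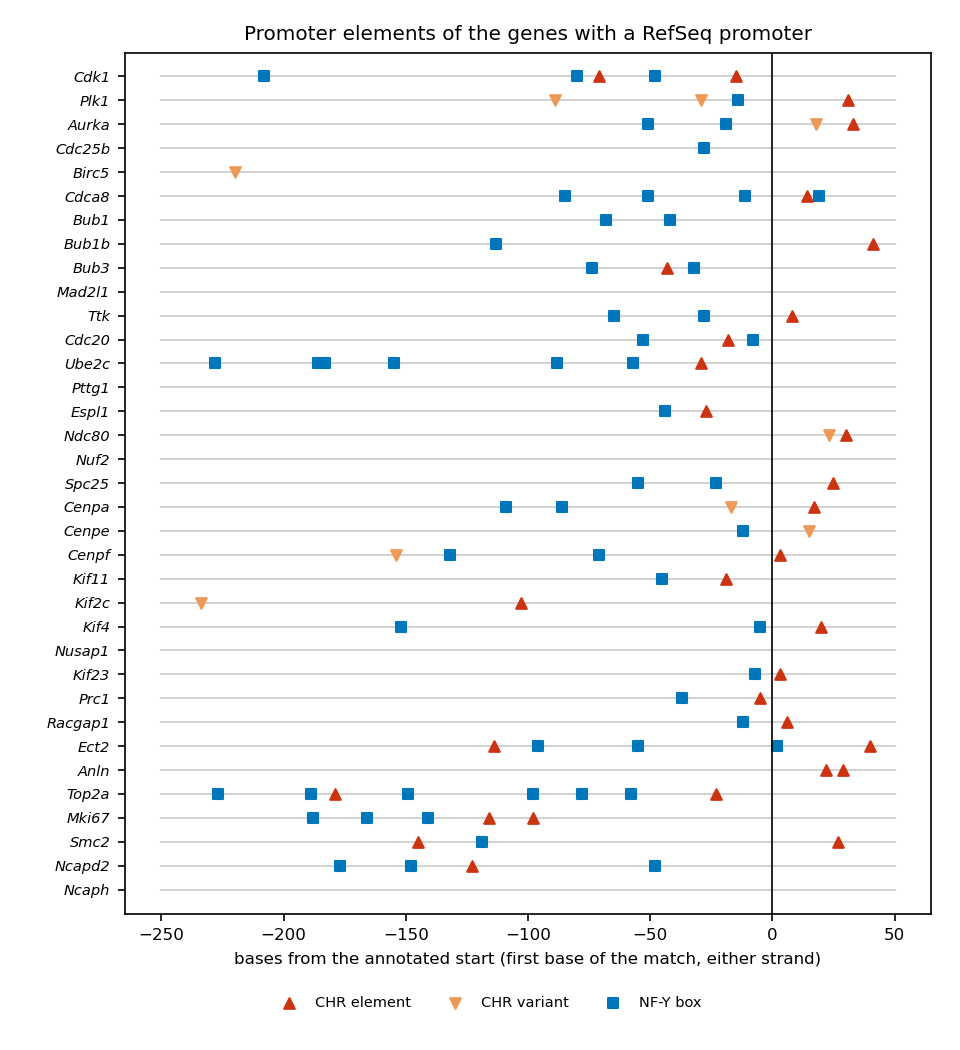
Position of each CHR element (TTTGAA, red triangles), CHR variant (TTTAAA, orange triangles) and NF-Y box (CCAAT, blue squares) in the RefSeq promoters of the 35 genes with an entry, in bases from the annotated start, with 1 gene per line. CCAAT boxes lie mostly before the start, while CHR elements lie on both sides of it, and 26 of the 35 genes hold TTTGAA.

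Sequencing placed 16078675 (HE3) to 19137059 (NC2) reads per sample on genes, so the 42 mRNAs were well above the level of single reads. HE3 stood apart from the other 5 libraries. It had the fewest reads, its median over all tested genes lay 0.173 below the NC mean on the log2 scale (the other 5 libraries lay between -0.022 and 0.019), and limma's sample weights gave it 0.158 against 0.852 to 2.87 for the others. As a check of the label, Sox2, a transcription factor of neural stem cells, averaged 204.3 ± 7.66 RPKM over the NC samples and 148.5 ± 44.3 over the HE samples (mean ± SD, 3 samples per group), with every HE sample below every NC sample. Nes, the intermediate filament nestin, averaged 186.7 ± 25.4 and 187.5 ± 51.8 RPKM. RPKM scales reads by the gene length given in the deposited table and by the library total. A ranking between genes therefore depends on that length, and most abundant below means the highest mean RPKM over the 6 samples. Markers of other cell types were summed in RPKM. The summed level of 11 microglia markers was 1.56 to 2.27 RPKM in NC and 3.61 to 11.51 in HE, and that of 10 endothelial markers 3.22 to 4.12 and 5.00 to 6.52, both without overlap. Of the microglia markers C1qa, C1qb, C1qc, Tmem119, Tyrobp and Trem2 were higher in every HE sample than in every NC sample, while Csf1r, Cx3cr1, P2ry12, Aif1 and Fcer1g overlapped. Of the endothelial markers Cdh5, Esam, Cldn5 and Emcn were apart in the same way, while Pecam1, Kdr, Tek, Tie1, Flt1 and Eng overlapped. Only 5 of the microglia and 5 of the endothelial markers passed the filter on low values. C1qa, C1qc, Tyrobp, Trem2, Cldn5 and Emcn, named here as apart, did not pass it. Among the markers that passed, 2 of 5 in each list were apart (40.0%, all tested genes 14.8%). The sums overlapped between the groups for 12 mesenchymal and mural markers (68.3 to 162.3 in NC and 104.2 to 216.4 in HE), 7 astrocyte markers (1482 to 1888 and 1072 to 1512), 8 oligodendrocyte lineage markers (290.7 to 320.9 and 314.8 to 514.5), 11 neuron markers (51.6 to 81.9 and 58.1 to 78.3) and 11 neural stem cell markers (2900 to 3587 and 2847 to 4539). Of the 11 mesenchymal and mural markers tested, 10 (90.9%, all genes 43.8%) were higher in HE and 1 was lower. Col3a1, Dcn and Twist1 had every HE sample above every NC sample (27.3%, all genes 14.8%), and the others overlapped. The neural stem cell sum was mostly Vim and Fabp7. Of these 11 markers 2 (18.2%, all genes 43.8%) were higher in HE and 9 lower. Sox2, Sox1, Prom1 and Msi1 had every HE sample below every NC sample, as had 17.9% of all genes. No marker of these lists was at 0 in all samples of a group. Over the same samples the 42 mRNAs summed to 597.5 to 752.5 RPKM in NC and 760.6 to 1038 in HE, and the part of the other cell types in the results below was not tested.

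To ask whether the mitotic program differed between HE and NC NSC/NPCs, each mRNA was compared with limma on log2(RPKM + 0.1). All 42 mRNAs had a higher mean in HE, by 0.012 to 0.70 on the log2 scale (log2 fold change, HE over NC), whereas 43.8% of all tested genes were higher. Their median log2 fold change was 0.44, a level 35.6% higher in HE, against -0.059 over all tested genes. The standard error of a single mRNA was 0.119 to 0.217. No member passed the study's cutoffs (an adjusted p under 0.05 together with a log2 fold change of 1 or more in size), and neither did any of the 13952 genes (0%), for which the smallest adjusted p was 0.148. The study applied these cutoffs to a count test, which was not run here, and reported mRNAs past them. The counts of 0 therefore belong to limma. The adjusted p of the 42 mRNAs ran from 0.195 (Mki67 and others) to 0.966 (Cdc25b), and none had a log2 fold change of 1 or more. At an unadjusted p under 0.05, 26 of the 42 (61.9%) were higher in HE and 0 were lower, against 8.68% of all tested genes higher and 11.8% lower. Limma's voom on the read counts also gave 0 past the cutoffs, with 27 members (64.3%, all genes 8.74%) higher at an unadjusted p under 0.05. With limma sample weights, which lowered the weight of HE3, 268 genes (1.92%) passed the cutoffs, none of them a member. In that fit 5 members, Bub3, Mki67, Nusap1, Smc2 and Kif11, had an adjusted p under 0.05, as had 6.28% of all genes, and 31 (73.8%, all genes 13.5%) were higher at an unadjusted p under 0.05. Without NC3, 101 genes (0.73%) passed the cutoffs, again none of the 42. In these bulk samples, a change in the share of cells in mitosis and a change in mRNA per mitotic cell cannot be told apart. The libraries do not measure cell division itself. In its own assays the paper reported fewer proliferating NSC/NPCs in HE, with fewer and smaller neurospheres, and more neurons after induced differentiation. Its gene set analysis of the RNA-Seq placed stem cell division, neuroblast division and neuroblast proliferation among the sets lowered in HE. It also named cell cycle and DNA replication as differing, with no direction in its text. Those gene sets were not examined here.

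In 23 of the 42 mRNAs (54.8%) every HE sample lay above every NC sample, against 14.8% of all tested genes. None lay wholly below, against 17.9%. All 23 were among the 26 at an unadjusted p under 0.05, and the other 3 were Cdc25c, Ube2c and Kif23, whose groups overlapped. For a single mRNA with 3 samples against 3, an exact permutation test over the 20 assignments cannot go below a two-sided p of 0.1, which each of the 23 reached.

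**Figure D2:**
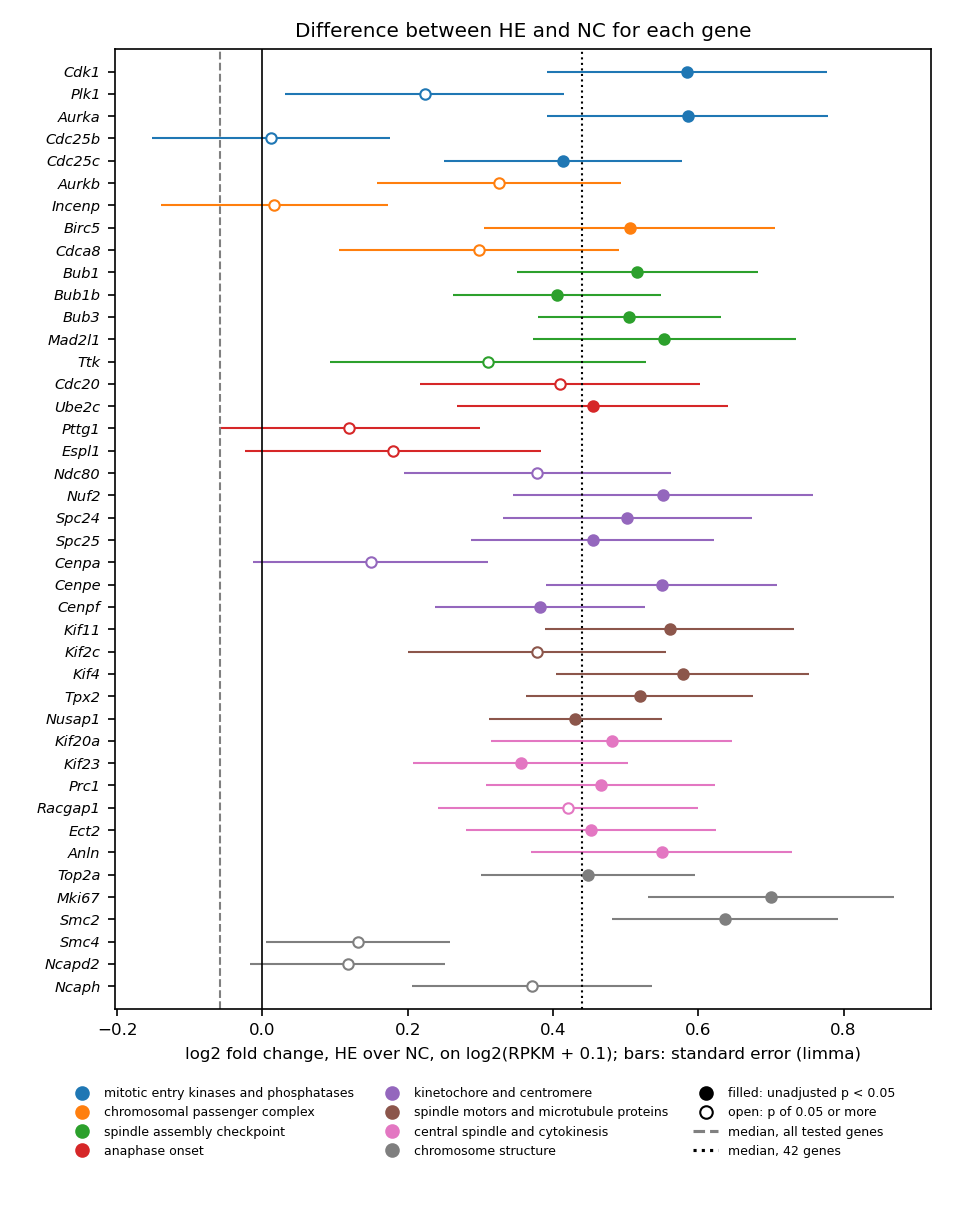
Log2 fold change (HE over NC) of each of the 42 mRNAs on log2(RPKM + 0.1), with the limma standard error as a bar, colored by role; filled points have an unadjusted p under 0.05. All 42 points lie above 0, around a median of 0.44 (dotted line), while the median of all tested genes is -0.059 (dashed line).

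The spread within each group was shared by most of the 42 mRNAs. The median of the 42, relative to the NC mean on the log2 scale, was -0.037 in NC1, -0.174 in NC2 and 0.215 in NC3, and 0.279 in HE1, 0.386 in HE2 and 0.649 in HE3. Thus the highest NC sample and the lowest HE sample lay close together, 0.215 against 0.279, and HE3 lay above the rest. NC2 was the lowest NC sample for 37 of the 42 mRNAs (36.0% of all genes), NC3 the highest NC sample for 39 (27.7%), HE1 the lowest HE sample for 32 (23.9%), and HE3 the highest HE sample for 38 (31.0%). In HE3 37 of the mRNAs had the highest value of all 6 samples (24.5% of all genes), and the median over all genes was lowest there. HE1 exceeded every NC sample in 24 mRNAs (32.3% of all genes), HE2 in 37 (31.1%) and HE3 in 38 (31.3%). The 42 genes took 0.266% to 0.341% of the reads in NC and 0.351% to 0.463% in HE, which did not overlap.

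**Figure D3:**
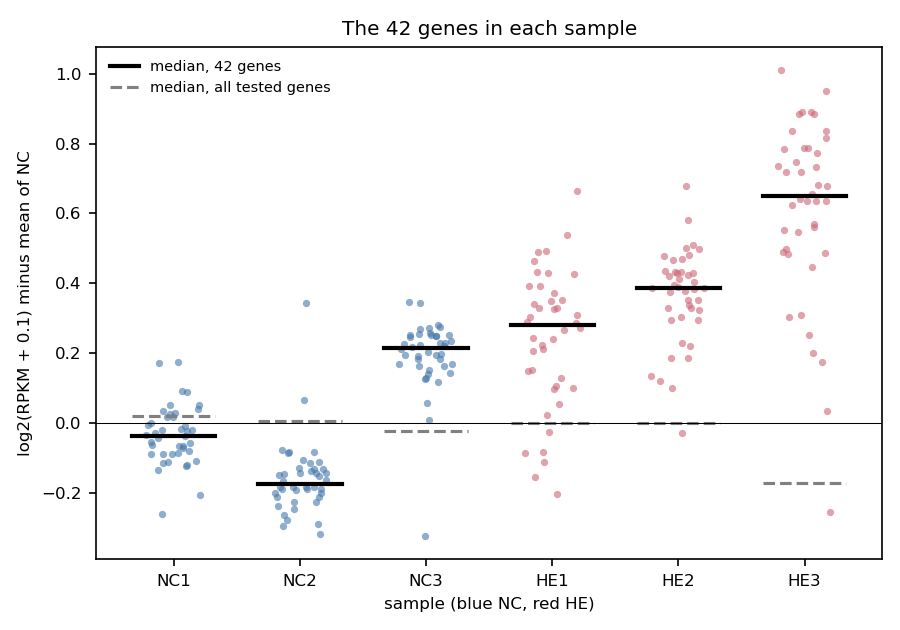
Each point is 1 of the 42 mRNAs in 1 sample, as log2(RPKM + 0.1) minus the mean of the 3 NC samples; black bars are the medians of the 42 and dashed bars those of all tested genes. The medians of the 42 run from -0.174 (NC2) to 0.215 (NC3) in NC and from 0.279 (HE1) to 0.649 (HE3) in HE, while in HE3 the median of all tested genes is -0.173.

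Because 19 of the 42 overlapped between the groups, each sample was left out in turn. Without HE3 the median log2 fold change of the 42 was 0.326 (all genes -0.001), 18 members (42.9%, all genes 9.27%) were higher at an unadjusted p under 0.05, and all 42 stayed above 0. The number above 0 was also 42 without NC1, but 41 without NC3 or without HE1 and 40 without NC2 or without HE2, the exceptions being Cdc25b, Incenp and Pttg1. Leaving out NC1 or NC2 lowered the count most, to 10 members (23.8%, all genes 4.4%) without NC1 and to 8 (19.0%, all genes 4.81%) without NC2. Without HE1, the HE sample nearest to NC, 30 members passed (71.4%, all genes 8.53%), and without NC3, the NC sample nearest to HE, 28 (66.7%, all genes 6.81%). The count of members with every HE above every NC sample was 36 without NC3 (all genes 19.3%) and 35 without HE1 (all genes 20.2%). In 12 of the 19 overlapping mRNAs leaving out HE1 ended the overlap, and in 13 leaving out NC3 did.

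**Figure D4:**
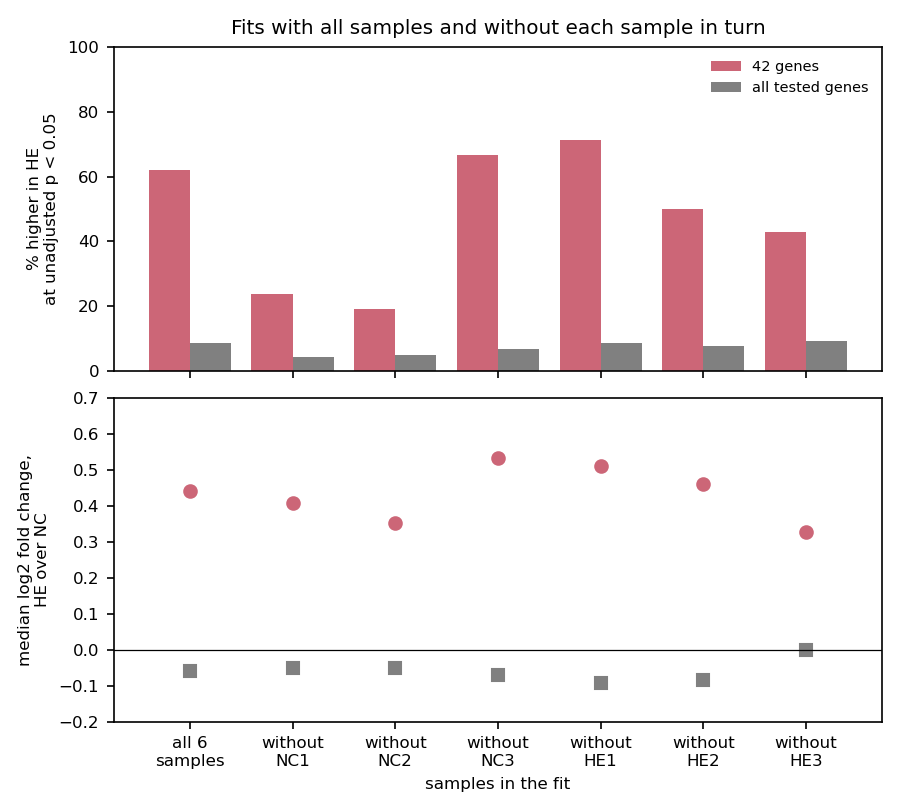
Upper panel: percentage of the 42 mRNAs (red) and of all tested genes (gray) higher in HE at an unadjusted p under 0.05, with all 6 samples and without each in turn. Lower panel: median log2 fold change, HE over NC, of the same sets; the 42 stay between 0.326 and 0.532, while the percentage drops from 61.9% to 19.0% without NC2.

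Among the 5 mitotic entry kinases and phosphatases, 3 (60.0%, all genes 8.68%) were higher in HE at an unadjusted p under 0.05. The median log2 fold change was 0.41. Cdk1, the kinase that drives entry into mitosis, was the most abundant of them. Its level was 26.1, 25.1 and 30.5 RPKM in NC1 to NC3 and 34.6, 35.7 and 54.8 RPKM in HE1 to HE3. Every HE sample lay above every NC sample, and HE3 was well above the other two. The log2 fold change was 0.58 ± 0.19 (SE; limma adjusted p = 0.198). Aurka, the Aurora kinase of the spindle poles, had the largest log2 fold change of this role, 0.59 ± 0.19 (adjusted p = 0.198). Its level was 18.7, 17.0 and 23.1 RPKM in NC and 24.4, 27.1 and 37.6 RPKM in HE. The groups did not overlap, but NC3 and HE1 differed by less than the NC samples did among themselves. Plk1, the Polo kinase of spindle assembly and mitotic exit, differed by 0.22, and its groups overlapped. The 2 phosphatases that activate Cdk1 were unlike each other. Cdc25c had a log2 fold change of 0.41, while Cdc25b, singled out after its values were seen, had 0.01, the smallest of the 42. Cdc25b stood at 9.81, 7.64 and 8.74 RPKM in NC and 9.35, 9.89 and 7.26 RPKM in HE, so that HE3, highest for most of the 42 mRNAs, was here the lowest of all 6 samples.

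The 4 members of the chromosomal passenger complex, which corrects faulty attachments at the centromere, had a median log2 fold change of 0.31. Only 1 of them (25.0%, all genes 8.68%) was higher at an unadjusted p under 0.05. Incenp, the scaffold of the complex, had the highest mean over the 6 samples, although Aurkb was higher than Incenp in HE (24.3 against 22.9 RPKM). Incenp measured 22.7, 19.4 and 25.7 RPKM in NC and 19.5, 26.2 and 23.0 RPKM in HE. These groups overlapped throughout, with a log2 fold change of 0.02 ± 0.16 (adjusted p = 0.953). Birc5 (survivin), which brings the complex to the centromere, measured 10.1, 8.77 and 12.3 RPKM in NC and 12.7, 13.0 and 19.1 RPKM in HE. All HE values of Birc5 were above those of NC, HE1 by a small margin, and its log2 fold change was 0.51 ± 0.20 (adjusted p = 0.229). Aurkb, the kinase of the complex, and Cdca8 (borealin), a further targeting subunit, differed by 0.33 and 0.30 and overlapped.

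The spindle assembly checkpoint was one of the roles with the larger differences, with a median log2 fold change of 0.51. Of its 5 mRNAs, 4 (80.0%, all genes 8.68%) were higher at an unadjusted p under 0.05. The same 4 (80.0%, all genes 14.8%) had every HE sample above every NC sample. Bub1b (BubR1), the inhibitor of Cdc20 within the checkpoint complex, was the most abundant, at 28.1, 27.6 and 36.2 RPKM in NC and 36.6, 39.8 and 44.9 RPKM in HE. NC3 and HE1 nearly met, and the log2 fold change was 0.41 ± 0.14 (adjusted p = 0.210). Mad2l1 (Mad2), which binds Cdc20 when a kinetochore is unattached, had the lowest mean RPKM of the 42 in NC. This rests on its length in the deposited table, 8390 bases. In reads Spc25 was lower, with 142, 176 and 184 in NC against 343, 291 and 372 for Mad2l1. Mad2l1 measured 2.18, 1.81 and 2.34 RPKM in NC and 2.93, 2.83 and 3.69 RPKM in HE. The groups did not overlap, but the lowest HE and the highest NC value differed by less than the NC samples did among themselves. The log2 fold change was 0.55 ± 0.18 (adjusted p = 0.197). Its promoter is the one shown above with none of the 3 words searched. Bub3, which loads Bub1 and BubR1 onto kinetochores, and Bub1, the kinase that recruits the checkpoint proteins, differed by 0.50 and 0.52. Ttk (Mps1), the kinase at the top of the pathway, differed by 0.31 and overlapped.

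The 4 mRNAs of anaphase onset had the smallest median of any role, 0.295, and in none of them were the groups apart (all genes 14.8%). Cdc20, the APC/C activator, was the most abundant of all 42 mRNAs, at 75.3, 71.1 and 83.7 RPKM in NC and 77.8, 103.3 and 130.8 RPKM in HE. HE1 fell within the NC range and HE2 and HE3 lay above it, giving a log2 fold change of 0.41 ± 0.19 (adjusted p = 0.267). Ube2c, the E2 enzyme that starts ubiquitin chains for the APC/C, had the same form, with 19.4, 15.8 and 21.4 RPKM in NC and 20.5, 26.5 and 31.2 RPKM in HE. HE1 was again inside the NC range, and the log2 fold change was 0.45 ± 0.19 (adjusted p = 0.236). Espl1 (separase), the protease that cuts cohesin, differed by 0.18, and its inhibitor Pttg1 (securin) by 0.12. Pttg1, described after its values were seen, measured 15.5, 19.99 and 12.6 RPKM in NC and 18.2, 15.4 and 17.8 RPKM in HE, and was the 1 member with its highest value in NC2 and its lowest in NC3.

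Of the 7 kinetochore and centromere mRNAs, 5 (71.4%, all genes 8.68%) were higher at an unadjusted p under 0.05. The same 5 had the groups apart (all genes 14.8%), and the median log2 fold change was 0.455. Spc24, a subunit of the Ndc80 complex that holds microtubules, was the most abundant. It stood at 28.7, 26.8 and 33.1 RPKM in NC and 34.8, 39.6 and 52.6 RPKM in HE, without overlap. The log2 fold change was 0.50 ± 0.17 (adjusted p = 0.204). Nuf2, another subunit of that complex, had the largest log2 fold change of the role, 0.55 ± 0.21 (adjusted p = 0.219), from 2.46, 2.79 and 3.80 RPKM in NC to 4.21, 3.88 and 5.20 RPKM in HE. For Nuf2, NC3 and HE2 nearly met. The remaining subunits, Ndc80 and Spc25, differed by 0.38 and 0.45. Cenpe, the kinetochore motor that carries chromosomes to the spindle equator, differed by 0.55, Cenpf, a large protein of the outer kinetochore, by 0.38, and Cenpa, the histone H3 variant of centromeres, by 0.15 with overlapping groups.

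The 5 spindle motors and microtubule proteins had the highest median, 0.52. Of these, 4 (80.0%, all genes 8.68%) were higher at an unadjusted p under 0.05, and the same 4 were apart (all genes 14.8%). Tpx2, which activates Aurora A on the spindle, was the most abundant, at 21.4, 18.9 and 24.5 RPKM in NC and 27.4, 28.8 and 37.1 RPKM in HE. Every HE value exceeded every NC value, and the log2 fold change was 0.52 ± 0.16 (adjusted p = 0.195). Kif4, the chromosome-bound kinesin that limits the length of the central spindle, measured 7.27, 6.74 and 9.29 RPKM in NC and 10.4, 10.7 and 13.8 RPKM in HE. It too was apart, with a log2 fold change of 0.58 ± 0.17 (adjusted p = 0.195). Kif11 (Eg5), the motor that pushes the spindle poles apart, differed by 0.56, and Kif2c (MCAK), which removes wrongly attached microtubules, by 0.38. Nusap1, a microtubule bundling protein, differed from the rest in its spread. Its HE values, picked out after they were seen, were 16.4, 16.4 and 16.7 RPKM against 11.9, 11.1 and 13.9 RPKM in NC, so that HE3 did not stand out, and the log2 fold change was 0.43.

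Among the 6 mRNAs of the central spindle and cytokinesis, 5 (83.3%, all genes 8.68%) were higher at an unadjusted p under 0.05. The groups were apart in 4 (66.7%, all genes 14.8%), and the median log2 fold change was 0.46. Kif20a (Mklp2), the kinesin that takes the passenger complex to the midzone, was the most abundant, at 18.8, 16.8 and 20.3 RPKM in NC and 22.5, 23.8 and 32.8 RPKM in HE. The groups were apart, with HE3 well above the rest, and the log2 fold change was 0.48 ± 0.17 (adjusted p = 0.205). Anln (anillin), the scaffold of the contractile ring, measured 8.15, 7.35 and 9.38 RPKM in NC and 10.4, 11.2 and 15.4 RPKM in HE. Its groups were apart too, and its log2 fold change was 0.55 ± 0.18 (adjusted p = 0.197). Prc1, which crosslinks the midzone microtubules, differed by 0.47. Ect2, the exchange factor that switches on RhoA, differed by 0.45, and the centralspindlin subunits Racgap1 and Kif23 by 0.42 and 0.36 with overlapping groups.

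The 6 mRNAs of chromosome structure had a median log2 fold change of 0.41. Their log2 fold changes ran from 0.12 to 0.70, with 3 higher at an unadjusted p under 0.05 and the same 3 apart. Mki67 (Ki-67), which coats mitotic chromosomes and is widely used as a marker of cycling cells, had the largest log2 fold change of all 42. It measured 21.1, 15.9 and 23.2 RPKM in NC and 28.8, 31.7 and 36.7 RPKM in HE. The HE samples were all above NC3, the highest control, and the log2 fold change was 0.70 ± 0.17 (unadjusted p = 0.0041, adjusted p = 0.195). Ncapd2, a condensin I subunit, had the highest mean of the role over the 6 samples, although Top2a was higher in HE (49.7 against 45.5 RPKM). Ncapd2 stood at 41.2, 37.8 and 46.7 RPKM in NC and 39.3, 47.5 and 49.7 RPKM in HE. These groups overlapped, with HE1 below NC1, and the log2 fold change was 0.12 ± 0.13 (adjusted p = 0.610). Top2a, the topoisomerase that untangles sister chromatids, differed by 0.45, and Ncaph, the subunit that closes the condensin I ring, by 0.37. The paired condensin ATPases, described after their values were seen, were unlike each other. Smc2 measured 6.13, 6.02 and 8.11 RPKM in NC and 10.7, 9.50 and 11.3 RPKM in HE, a log2 fold change of 0.64 ± 0.16, and its groups were apart. Smc4, its partner, measured 14.5, 15.1 and 18.6 RPKM in NC and 17.1, 17.1 and 18.3 RPKM in HE, a log2 fold change of 0.13, and HE3 lay below NC3.

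**Figure D5:**
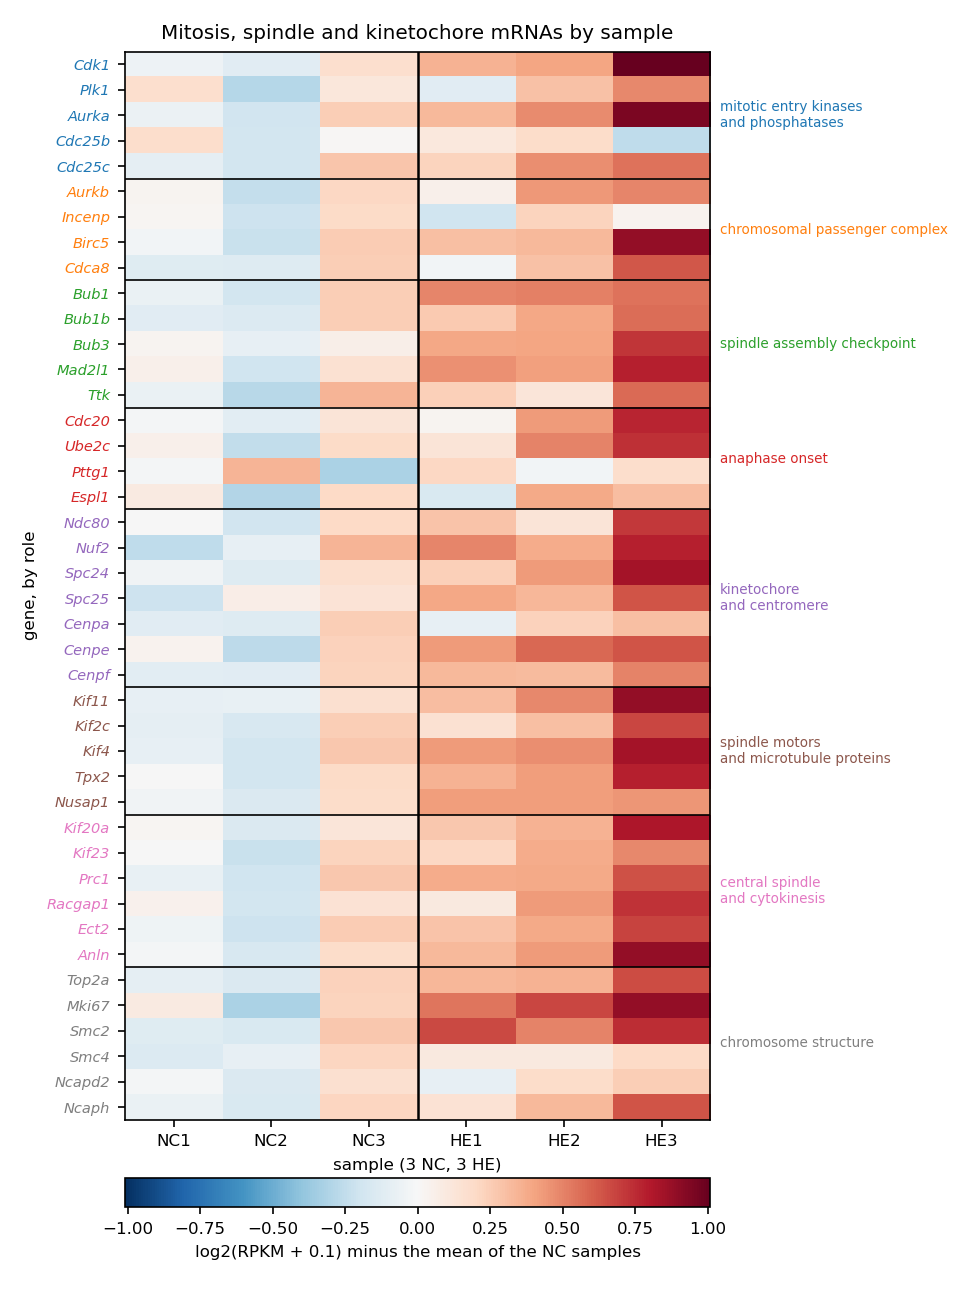
Log2(RPKM + 0.1) minus the mean of the 3 NC samples for the 42 mRNAs (rows, by role) in the 6 samples (columns); red is above the NC mean and blue below. NC3 is the highest control in 39 rows and HE3 the highest HE sample in 38; in the row of Cdc25b HE3 is the lowest of the 6.

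The log2 fold changes were also set beside the promoter words. The 26 genes with TTTGAA had a median log2 fold change of 0.434 (0.117 to 0.70), and the 9 genes without it had 0.505 (0.012 to 0.553). For CCAAT the medians were 0.451 in the 26 with it and 0.431 in the 9 without. These are descriptions with no test, over genes whose values come from the same 6 libraries.

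A wider list held 112 other mitosis genes. Of these, 28 (25.0%, all genes 8.68%) were higher in HE at an unadjusted p under 0.05 and 0 were lower (all genes 11.8%), 0 passed the cutoffs, 41 (36.6%, all genes 14.8%) had every HE sample above every NC sample, and the median log2 fold change was 0.284. The 12 further cyclins and kinases had 6 higher and a median of 0.46; Ccnb1 (cyclin B1), the partner of Cdk1, measured 17.2, 15.8 and 21.3 RPKM in NC and 27.8, 30.2 and 39.4 RPKM in HE, a log2 fold change of 0.84 ± 0.17 (adjusted p = 0.195), and was chosen after its values were seen. Among 33 further spindle and cytokinesis genes 13 (39.4%) were higher (median 0.386). Among 35 further kinetochore genes 5 (14.3%) were, Cenpm, Cenpn, Pmf1, Ska1 and Mis12 (median 0.304). The 17 other subunits and regulators of the APC/C had 2, Anapc5 and Cdc27 (median 0.163), and the 15 other condensin and cohesin genes had 2, Ncapg2 and Smc1a (median 0.124), shares of 11.8% and 13.3% that lie near the 8.68% of all genes.

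Among 15 regulators of mitotic transcription 0 passed the cutoffs. At an unadjusted p under 0.05, 3 of the 15 (all genes 8.68%) were higher in HE, Tfdp1, the dimer partner of E2F factors (log2 fold change 0.46), Nfyc, a subunit of NF-Y (0.39), and Rbbp4, a histone-binding subunit of the MuvB core (0.31). The 1 lower (6.67%, all genes 11.8%) was Rbl2, a pocket protein of DREAM, with a log2 fold change of -0.42. DNA replication genes, which act before mitosis in S phase, had 38 of 38 higher in HE, 22 (57.9%, all genes 8.68%) at an unadjusted p under 0.05, and a median log2 fold change of 0.545.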

How the data were processed

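RNA-Seq covered first-passage NSC/NPCs, 3 samples per group. Per the labels and the study's methods, the authors filtered the reads and aligned them with TopHat2 to mm10 (CASAVA 1.7 is also named). The counting tool, annotation and use of strand in counting are not given in the sources used here, so overlapping genes may share reads. The deposited table gives raw read counts and RPKM, which the authors computed from count, gene length and library total; recomputing it differed by at most 4.99e-07. The count cells hold commas, which were removed on reading, and were recorded as another unit. The count test the study used was not run here. Instead limma 3.58.1 (R 4.3.3) with a mean-variance trend was fitted to log2(RPKM + 0.1), which understates changes of low genes, with group as the term and Benjamini-Hochberg adjustment over 13952 genes. The filter asked for a rate equal to 10 reads at the median library size in 3 or more samples, and 15 reads in all. Symbols were found for 21781 of 22048 identifiers.

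The depth was 16078675 to 19137059 reads on genes per sample, so 1 read per kilobase was 0.0523 to 0.0622 RPKM. In each role all 6 values are given for the mRNA with the highest mean over the 6 samples and for that with the largest positive log2 fold change. The members and lists were chosen with earlier results of these data known. Alternatives were a pseudocount of 1, median-of-ratios scaling, 2 other filters, voom on counts, sample weights, a replicate block and leaving out each sample. The fits were tested on simulated data.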

Additional observations from a re-analysis of the deposited data

How the results depend on the processing

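No member passed the study's cutoffs under any alternative run. Over all genes the count past them was 0, except 268 with limma sample weights, which gave HE3 a weight of 0.158, and 101 without NC3; leaving out 1 sample each gave 0 to 101. With the sample weights 5 members had an adjusted p under 0.05, Bub3 (0.0382), Mki67 (0.0396), Nusap1 (0.0451), Smc2 (0.0461) and Kif11 (0.0474), as had 6.28% of all genes. In that fit 43 of the 112 other mitosis genes were higher at an unadjusted p under 0.05, against 13.5% of all genes. Without each sample in turn, members higher at that threshold numbered 8 (without NC2, all genes 4.81%) to 30 (without HE1, all genes 8.53%). Other mitosis genes numbered 10 (without NC2) to 34 (without HE1), against the same shares of all genes. Members with every HE above every NC sample numbered 23 to 36 (all genes 17.9% to 20.6%), and the median log2 fold change of the members was 0.326 to 0.532. It was 0.402 with a pseudocount of 1 and 0.501 with median-of-ratios scaling (all genes -0.001). The direction of 3 members turned when 1 sample was left out: Cdc25b ran from -0.079 to 0.146 (-0.079 without NC2, -0.035 without HE1, -0.075 without HE2), Incenp from -0.089 to 0.127 (-0.089 without NC2, -0.086 without HE2) and Pttg1 from -0.042 (without NC3) to 0.291. The cause was not tested. Whether the replicate numbers pair the samples is not given in the sources used here. Same-number correlations of the deviations were 0.156, 0.087 and 0.06, and those between different numbers -0.076 to -0.001. Each sample thus correlated best with its own number. The correlations were small, and deviations from a mean of 3 samples are tied to each other. They therefore cannot settle whether the samples are paired. With the replicate block 31 members (73.8%, all genes 8.75%) and 35 other mitosis genes were higher at an unadjusted p under 0.05 and 0 genes passed the cutoffs. Of the values that answer a comparison, 65 stayed near those of the main fit and 9 moved. Of the values of single members, 540 kept their direction and 6 turned. Depth limits the low mRNAs most, down to 142 reads.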

Other observations

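Ratios between mRNAs of 1 complex, chosen after the values were seen and given with no test, do not depend on the library total. The log2 ratio of Smc2 to Smc4, which pair in condensin, was -1.25, -1.32 and -1.20 in NC1 to NC3 and -0.68, -0.85 and -0.70 in HE1 to HE3. Every HE ratio lay above every NC ratio, and the means differed by 0.51. The log2 ratio of Aurkb to Incenp, the kinase and the scaffold of the passenger complex, was -0.22, -0.26 and -0.21 in NC and 0.03, -0.01 and 0.23 in HE, again without overlap. By contrast, the log2 ratio of Spc25 to Spc24, which pair in the Ndc80 complex, was -3.60, -3.22 and -3.44 in NC and -3.26, -3.50 and -3.60 in HE, and that of Bub3 to Bub1 was 2.83, 2.84 and 2.53 in NC and 2.62, 2.61 and 2.89 in HE. The groups overlapped in both of these pairs. Further pairs were computed, not all within 1 complex. Smc2 to Ncapd2, Birc5 to Incenp and Aurka to Plk1 were apart too. Nuf2 to Ndc80, Cdc25c to Cdc25b, Birc5 to Aurkb and Mad2l1 to Cdc20 overlapped. The share of gene pairs at large with ratios apart was not computed.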
